A study of Mus musculus with 4 samples.

Results

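The genes described here are 10 RNA-binding protein genes, the neuronal ELAV-like genes Elavl2, Elavl3 and Elavl4, the NOVA genes Nova1 and Nova2, the RBFOX genes Rbfox1, Rbfox2 and Rbfox3, and the CELF genes Celf3 and Celf4. They were chosen by name, as members of 4 families of RNA-binding proteins, with earlier results of these data known. All 10 were found among the 24062 genes of the deposited count table. Their read counts were compared between whole retinas of wildtype (WT) and Nrf1-CKO mouse embryos at E13.5, with 2 libraries of each genotype on a mixed C57BL/6 and 129 background. In Nrf1-CKO (Nrf1 f/f;Six3-Cre in the study's methods), a floxed exon 4 of Nrf1, in a line derived from 1 targeted embryonic stem cell clone, is removed by a Six3-Cre transgene that becomes active in progenitors of the central retina, so peripheral retina and any non-retinal cells in the dissection may keep the gene. Retinas of several littermates were pooled for RNA and the sequencing was done in duplicate, and whether the 2 libraries of a genotype came from separate pools is not stated in the sources used here, so their spread may be technical. No further allele or treatment is given for the WT embryos. The comparison asks how the messages of these genes differ when Nrf1, a transcription factor of mitochondrial and other genes, is deleted in retinal progenitors.

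Neuronal RNA-binding proteins decide what becomes of a transcript after it is made. The ELAV-like proteins, also called Hu proteins, bind stretches rich in U and stabilize or splice the transcripts that carry them, and their neuronal forms appear as a progenitor leaves the cell cycle. NOVA and RBFOX proteins control which exons neurons include, and the product of Rbfox3 is known as the nuclear neuronal antigen NeuN. CELF proteins regulate splicing, translation and decay, with Celf1 and Celf2 widely expressed and Celf3 to Celf6 more restricted to the nervous system. In the embryonic retina the first neurons to form are the retinal ganglion cells (RGCs), and antibodies to ELAV-like proteins are commonly used to mark ganglion and amacrine cells. The counts below cover whole genes, so they carry no information on splicing or on protein.

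Between 74577660 and 85933945 reads per library were counted on genes, and TMM factors, which correct for library composition, lay between 0.992 and 1.02. Counting noise alone would give a chi-square near 1 for each gene between replicates, and the observed values were 45.8 for the WT and 56.8 for the Nrf1-CKO pair, so no library is a copy of another, although separate preparations from 1 RNA pool can also differ by more than counting noise. Nrf1 itself had 9052 and 7789 reads in WT and 8594 and 8284 in Nrf1-CKO, and since reads are summed over the gene this does not check the deletion of 1 exon. The retinal progenitor gene Pax6 was well covered in all libraries, with 48960 to 55418 reads. Lens genes stood apart. Their summed level over 10 markers was 138 and 376 CPM (read counts relative to the TMM-scaled library size) in WT but 7833 and 3209 CPM in Nrf1-CKO, and 9 of the 9 tested were called higher. Genes were called where edgeR's quasi-likelihood test gave a Benjamini-Hochberg adjusted p not above 0.2 and the change was 1.4-fold or more. Log2 fold changes are Nrf1-CKO relative to WT and are followed by their standard error (SE).

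Most of the 10 genes were lower in Nrf1-CKO retinas. Of the 10, all of which passed the filter on low counts, 7 were called lower and 0 higher, where 8.04% of the 15762 genes tested by edgeR were called lower, 12.8% higher and 20.9% in either direction. At an adjusted p of at most 0.05, 6 were lower and 0 higher, against 6.59% and 9.17% of all tested genes. The median log2 fold change over the 10 was -0.92, beside 0.00073 over all tested genes, with single genes from -1.48 for Elavl4 to -0.18 for Nova1. On the authors' deposited normalized values, tested with limma, the median of the 10 was -0.53 and 6 were called lower. For 8 of the 10 genes both Nrf1-CKO libraries lay below both WT libraries, which held for 31.6% of all tested genes, while the reverse order held for 0 of the 10 and for 30.9% of all, and the genotypes were apart in either order in 62.5%. The study itself lists Elavl3, Elavl4 and Celf3 among genes that decreased in these libraries. Its printed list covers only decreased genes enriched in cells expressing Atoh7, so others of the 10 may also have decreased in its own analysis. All 10 genes were measured here in the same libraries, so none is independent evidence of the direction. Among the 7 genes outside that list, 4 were called lower and their median was -0.61. Because these are whole retinas, fewer neurons and less of each message per neuron cannot be told apart.

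**Figure D1:**
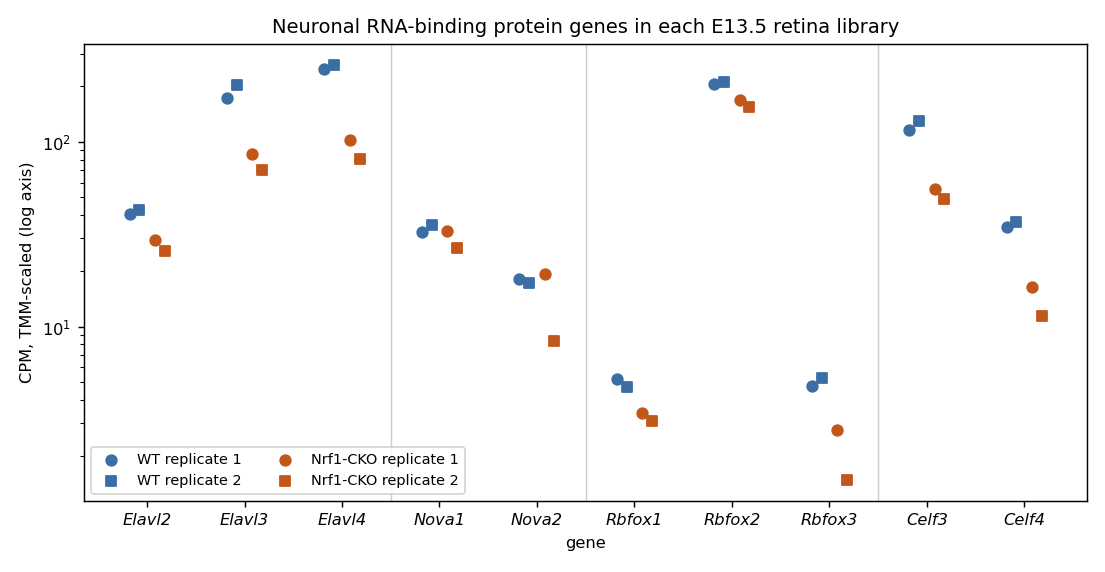
Scaled read counts (CPM, log axis) of the 10 genes in each of the 4 libraries, WT in blue and Nrf1-CKO in orange, with circles for replicate 1 and squares for replicate 2. For Elavl2, Elavl3, Elavl4, the 3 RBFOX genes, Celf3 and Celf4 both orange points lie below both blue points, whereas for Nova1 and Nova2 the genotypes overlap.

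Promoter windows of Elavl3, Elavl4 and Celf3, 3 of the genes called lower, are shown because the deleted gene encodes a factor that binds GC-rich promoter elements. RefSeq starts on GRCm38.p6 were available for 8 of the 10 genes (not Rbfox2 and Celf4), 23 windows in all, each from 250 bases before to 50 bases after a start. They were searched on both strands for GCGCATGC (GCATGCGC on the other strand), the core of the Nrf1 consensus, and for the shorter TGCGCA, which is its own reverse complement and overlaps the core in a full site. The core was in 0 of the 23 windows, and in 2.71% of all 32851 windows of the table. The shorter motif was in 3 of the 23 windows, against 7.76% of all windows. These 3 overlap and belong to closely spaced starts inside Celf3, and the other 4 Celf3 windows, 1 of them also at a start well inside the gene, had no match. A match, or its absence from these windows, is a description of the sequence and says nothing about binding. The windows below are in the direction of transcription, with TGCGCA in capitals. Elavl3 is chr9:22051974-22052273 (minus strand), Elavl4 chr4:110351862-110352161 (minus strand), Celf3 at its 5′ start chr3:94478045-94478344 and at 1 of the 3 inner starts with the motif chr3:94484077-94484376 (plus strand).
Elavl3: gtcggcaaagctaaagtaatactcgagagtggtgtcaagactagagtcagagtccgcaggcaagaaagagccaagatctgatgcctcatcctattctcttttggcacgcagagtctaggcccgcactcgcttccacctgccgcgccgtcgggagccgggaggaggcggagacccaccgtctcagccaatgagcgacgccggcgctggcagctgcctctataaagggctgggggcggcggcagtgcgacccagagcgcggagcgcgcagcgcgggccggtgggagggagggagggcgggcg
Elavl4: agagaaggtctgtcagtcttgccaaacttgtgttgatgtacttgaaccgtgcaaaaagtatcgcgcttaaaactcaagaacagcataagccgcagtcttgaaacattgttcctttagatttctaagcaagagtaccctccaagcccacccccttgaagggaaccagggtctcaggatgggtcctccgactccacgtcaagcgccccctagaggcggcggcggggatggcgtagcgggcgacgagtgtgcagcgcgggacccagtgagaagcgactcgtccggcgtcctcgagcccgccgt
Celf3, 5′ start: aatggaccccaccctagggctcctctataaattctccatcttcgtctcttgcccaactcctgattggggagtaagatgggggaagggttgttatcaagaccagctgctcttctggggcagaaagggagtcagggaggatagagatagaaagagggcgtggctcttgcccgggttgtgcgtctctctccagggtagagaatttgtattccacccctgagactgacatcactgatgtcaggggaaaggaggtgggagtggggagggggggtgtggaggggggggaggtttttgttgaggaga
Celf3, inner start: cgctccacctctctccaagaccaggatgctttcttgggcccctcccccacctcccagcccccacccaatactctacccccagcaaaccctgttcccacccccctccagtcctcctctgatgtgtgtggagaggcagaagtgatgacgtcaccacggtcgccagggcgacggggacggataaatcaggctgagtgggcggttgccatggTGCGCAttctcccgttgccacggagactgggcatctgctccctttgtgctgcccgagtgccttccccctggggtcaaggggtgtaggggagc

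In the inner Celf3 window shown the motif begins 42 bases before the start. GC content was 65.3% in the only Elavl3 window, between 43.7% and 57.0% in the 4 Elavl4 windows, of which the one shown was the highest, and between 55.0% and 64.3% in the 7 Celf3 windows. The median of all windows in the table was 52.7%. The windows of Nova1 and Nova2, the only genes not called that had windows, held neither motif. Those of Elavl2, Elavl3, Elavl4, Rbfox1 and Rbfox3 also held neither.

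The 3 neuronal ELAV-like genes were all called lower. Elavl4, which encodes HuD, a stabilizer of neuronal messages such as that of Gap43, spans 110203722 to 110351909 on chromosome 4 of GRCm38, on the minus strand. It gave 21852 and 19398 reads in WT replicates 1 and 2 and 8513 and 6692 in Nrf1-CKO replicates 1 and 2, that is 256 ± 8.49 and 91.7 ± 15.3 CPM (SD, n = 2). The highest Nrf1-CKO library was thus well below the lowest WT library. Its log2 fold change was -1.48 (SE 0.11, edgeR adjusted p = 9.9e-05), the largest decrease of the 10 genes with all libraries used. Without Nrf1-CKO replicate 1 the value for Elavl4 was -1.66 and that for Rbfox3 was lower, at -1.76. Elavl3, which encodes the pan-neuronal HuC, lies on chromosome 9 from 22015005 to 22052023. Its counts were 15123 and 15131 in WT and 7119 and 5822 in Nrf1-CKO, so both mutant libraries were again below the WT pair. The level fell from 188 ± 22.1 to 78.0 ± 10.8 CPM (SD, n = 2), or by a log2 fold of -1.27 (SE 0.12, edgeR adjusted p = 0.000201).

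Elavl2, the gene of HuB, is at 91250763 to 91400785 on chromosome 4 and changed less. With 3569 and 3165 reads in WT and 2428 and 2119 in Nrf1-CKO, it retained 65.7% ± 6.13 of the WT level (SD, n = 2), and the genotypes did not overlap. The log2 fold change was -0.61 (SE 0.10, edgeR adjusted p = 0.00225). Since this is close to the 1.4-fold limit of 0.49, Elavl2 was not called when edgeR tested the fold change itself against that limit (adjusted p = 0.287).

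Both CELF genes of the set were lower as well. Celf3, a regulator of neuronal splicing, occupies 94478295 to 94492198 on chromosome 3. WT libraries contained 10124 and 9581 of its reads and Nrf1-CKO libraries 4592 and 4069. The pairs were tight and far apart, with 122 ± 9.60 against 52.2 ± 4.31 CPM (SD, n = 2). This is a log2 difference of -1.23 (SE 0.09, edgeR adjusted p = 9.9e-05). Celf4, whose product binds many synaptic messages and dampens neuronal excitability, is on chromosome 18 from 25477632 to 25754157. It dropped from 3016 and 2714 reads to 1352 and 940, or to 38.9% ± 9.78 of WT (SD, n = 2), and both mutant libraries were below the WT libraries. For Celf4 the log2 fold change was -1.36 (SE 0.16, edgeR adjusted p = 0.000462).

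In the RBFOX family the scarce genes Rbfox1 and Rbfox3 were called lower and the abundant Rbfox2 was not. Rbfox2 is active in neural progenitors as well as in neurons and in other tissues. Located at 77078990 to 77307004 on chromosome 15, it had 18107 and 15721 reads in WT and 13993 and 12829 in Nrf1-CKO. All mutant values were below the WT values after scaling, at 162 ± 9.46 against 209 ± 3.68 CPM (SD, n = 2). This log2 fold change of -0.37 (SE 0.08, edgeR adjusted p = 0.00946) was smaller than 1.4-fold, so Rbfox2 was not called. Rbfox3, the NeuN gene and a marker of mature neurons, was near the bottom of the range, with 419 and 388 reads in WT and 229 and 122 in Nrf1-CKO. It extends from 118489762 to 118911597 on chromosome 11. Both mutant libraries were lower, but they differed from each other by more than the WT pair did. The log2 fold change of -1.24 (SE 0.30, edgeR adjusted p = 0.0169) lay between -1.76 without Nrf1-CKO replicate 1 and -0.86 without Nrf1-CKO replicate 2, and it was -0.56 on the authors' deposited normalized values.

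Rbfox1, a splicing regulator of differentiated neurons and muscle and the longest gene of the set, runs from 5885355 to 7411526 on chromosome 16, a span of 1526 kb. It had 455 and 349 reads in WT and 283 and 255 in Nrf1-CKO, without overlap. The log2 fold change was -0.61 (SE 0.20, edgeR adjusted p = 0.0544), and the call was lost without WT replicate 1, with a value of -0.53 and an adjusted p of 0.217 from edgeR, and on the deposited normalized values, where the log2 difference was -0.29.

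Neither NOVA gene was called. Nova1, a splicing factor of neurons of the ventral brain and spinal cord, is on chromosome 12 from 46694517 to 46818929. The numbers of reads were 2830 and 2620 in WT and 2732 and 2215 in Nrf1-CKO. After scaling, Nrf1-CKO replicate 1 (32.9 CPM) lay between the WT libraries (32.3 and 35.3 CPM) and replicate 2 (26.8 CPM) below them, so the genotypes overlapped. Its log2 fold change was -0.18 (SE 0.11, edgeR adjusted p = 0.307). For Nova2, the paralog that prevails in cortical neurons, the result rested on 1 library. It covers 18925888 to 18965319 on chromosome 7, with 1591 and 1279 reads in WT, 1593 in Nrf1-CKO replicate 1 and 690 in replicate 2. The log2 fold change was -0.36 (SE 0.30, edgeR adjusted p = 0.445). Without Nrf1-CKO replicate 2 it was 0.11 and without Nrf1-CKO replicate 1 it was -1.09, past the thresholds. Of its annotated exon bases, 2652 of 8372 also lie under the long noncoding gene Gm26821 on the opposite strand, and as no strand setting of the counting is given in the sources used here, reads of the 2 genes cannot be told apart there.

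The mutant libraries were not alike over the set. Nrf1-CKO replicate 2 held the lower level of the 2 in 10 of 10 genes, compared with 51.9% of all tested genes, whereas WT replicate 2 was the lower of the WT pair in 2 of 10. The summed level of 14 RGC markers differed in the same order, 683 CPM in Nrf1-CKO replicate 1 and 522 CPM in replicate 2, while that of the lens markers was the reverse (7833 and 3209 CPM). Whether either plays a part in the difference between the mutant libraries was not tested. Without Nrf1-CKO replicate 1, 8 of the 10 genes were called lower, Nova2 being added, and without replicate 2 there were 7.

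Close relatives outside the set were not all lower: 2 of the 5 were called lower and 0 higher. Elavl1, the ubiquitous ELAV-like gene (HuR), had 224 and 211 CPM in WT and 205 and 193 CPM in Nrf1-CKO, a log2 fold change of -0.13 (SE 0.08, edgeR adjusted p = 0.303). Celf1 and Celf2, the broadly expressed CELF genes, had log2 fold changes of 0.35 and -0.11, neither of them 1.4-fold, and Celf1 gave 258 and 226 CPM in WT and 347 and 269 CPM in Nrf1-CKO, higher in both. Celf5 and Celf6, both scarce, were called lower. Celf5 had 638 and 698 reads in WT and 261 and 128 in Nrf1-CKO (log2 fold change -1.83, SE 0.31, edgeR adjusted p = 0.00309). For Celf6 the reads numbered 380 and 282 in WT and 135 and 118 in Nrf1-CKO, with a log2 fold change of -1.42 (SE 0.25, edgeR adjusted p = 0.00361). The study also lists Celf5 among decreased genes. In both genes the mutant libraries were below the WT libraries.

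**Figure D2:**
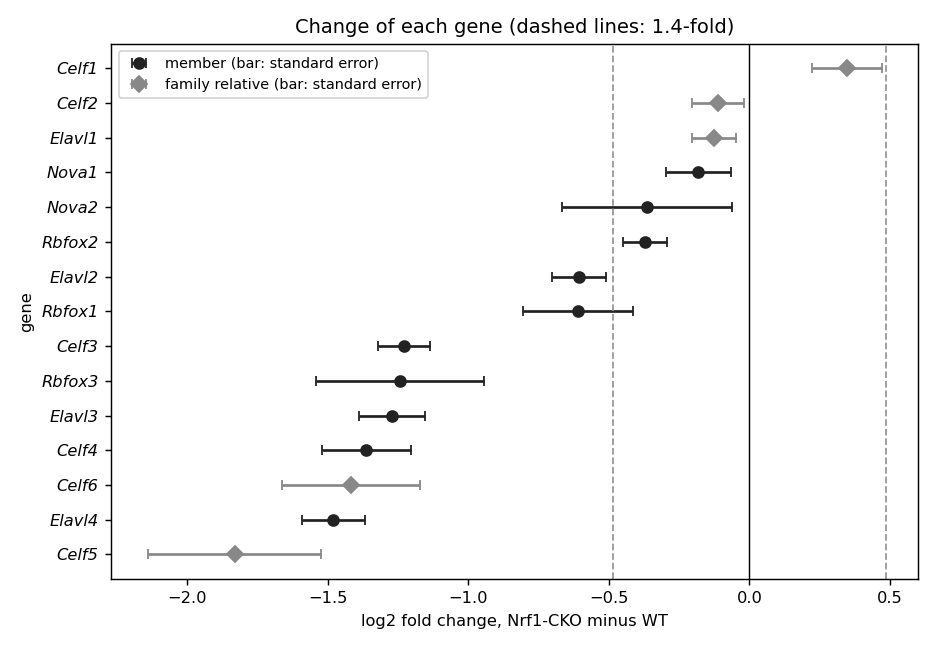
Log2 fold change of Nrf1-CKO against WT with its standard error, from edgeR, for the 10 genes (circles) and 5 relatives of the same families (diamonds), with dashed lines at 1.4-fold. Elavl4, Celf4, Elavl3, Rbfox3 and Celf3 lie between -1.48 and -1.23, Celf6 among them at -1.42 and Celf5 beyond them at -1.83, and Nova1, Elavl1, Celf2 and Celf1 lie within 1.4-fold of 0.

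Levels of different genes were set side by side per length, as FPKM, that is CPM divided by the kilobases of the union of annotated exons. In WT, Elavl4 had the highest level of the 10 genes, 47.4 ± 1.58 FPKM (SD, n = 2), followed by Elavl3 with 27.3 ± 3.21, Rbfox2 with 25.7 ± 0.451 and Celf3 with 22.4 ± 1.75. The libraries of Elavl3 and Rbfox2 overlapped in this order. After a gap came Elavl2 at 5.02 ± 0.163, Celf4 at 4.14 ± 0.177 and Nova1 at 3.87 ± 0.243 FPKM, the last 2 overlapping. Nova2, Rbfox1 and Rbfox3 closed the order with WT means of 2.11, 1.12 and 0.861 FPKM. In Nrf1-CKO the order began with Rbfox2 at 19.9 ± 1.16 FPKM, ahead of Elavl4 at 17.0 ± 2.83, Elavl3 at 11.3 ± 1.57 and Celf3 at 9.54 ± 0.787 FPKM. Nova1 (3.41 FPKM) came next and overlapped with Elavl2 (3.30 FPKM), as did Nova2 (1.64 FPKM) with Celf4 (1.61 FPKM). The Nrf1-CKO libraries of Rbfox2 and Elavl4 did not overlap on this scale but did when lengths were those of the longest transcript. That choice of length raised Elavl2 to 9.95 FPKM and Celf4 to 8.89 FPKM in WT without changing their WT ranks. It put Celf3 above Rbfox2 in WT, and in Nrf1-CKO it put Elavl2 above Nova1 and Celf4 above Nova2. Some ranks thus depend on the gene model.

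Within families, the balance between the neuronal and the broadly expressed paralogs differed between the genotypes. Elavl2, Elavl3 and Elavl4 made up 77.9% and 80.4% of the FPKM of the ELAV-like family in the WT libraries and 63.9% and 60.3% in the Nrf1-CKO libraries, the rest being Elavl1. The mean total of this family was 101 FPKM in WT and 50.9 FPKM in Nrf1-CKO, that of the CELF family 65.9 and 56.1 FPKM, and that of the RBFOX family 27.7 and 21.0 FPKM. For the CELF family, Celf3 to Celf6 accounted for 41.2% and 46.5% in WT and 20.7% and 21.9% in Nrf1-CKO. Rbfox1 and Rbfox3 were a small part of the RBFOX family, 7.31% and 7.03% in WT and 5.69% and 4.77% in Nrf1-CKO. In each family the genotypes did not overlap. With 2 libraries per genotype no exact permutation test of a single value can go below a two-sided p of 0.333.

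**Figure D3:**
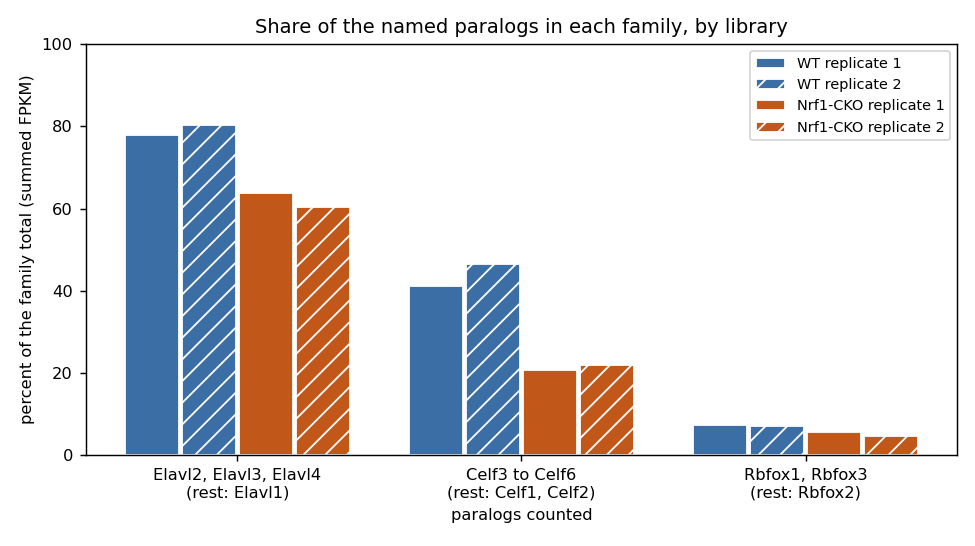
Share of each family's summed FPKM that falls to the named paralogs, in percent, with 1 bar for each of the 4 libraries (blue WT, orange Nrf1-CKO, hatched replicate 2). Bars of the ELAV-like and CELF families are clearly lower in both Nrf1-CKO libraries, from 77.9% and 80.4% to 63.9% and 60.3% for the former, while Rbfox1 and Rbfox3 are a minor share of their family throughout.

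Ratios of reads between paralogs of 1 library do not depend on scaling and were therefore compared directly. For each read of Elavl3 there were 0.236 and 0.209 reads of Elavl2 in WT and 0.341 and 0.364 in Nrf1-CKO, so the log2 ratio was higher by 0.67 in the mutant. For Elavl4 relative to Elavl3 the ratio was 1.44 and 1.28 in WT and 1.20 and 1.15 in Nrf1-CKO, a difference of -0.22 on the log2 scale. The ratio of Rbfox3 to Rbfox2 was 0.0231 and 0.0247 in WT and 0.0164 and 0.00951 in Nrf1-CKO, a log2 difference of -0.94, and that of Rbfox1 to Rbfox2 differed by -0.24. The genotypes did not overlap for these 4 ratios, each with an exact two-sided permutation p of 0.333, the smallest that 2 against 2 libraries can give. For Celf3 over Celf4 (3.36 and 3.53 in WT, 3.40 and 4.33 in Nrf1-CKO) and for Nova1 over Nova2 (1.78 and 2.05, 1.71 and 3.21) the genotypes overlapped, with exact permutation p-values of 0.667 and 1.

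Among 36 other RNA-binding proteins of neurons and neural progenitors, Srrm3 and Rbpms2 were called lower and Cpeb1 higher. These are 2 and 1 of 36, where 8.04% of all tested genes were called lower and 12.8% higher. The median log2 fold change of the 36 was 0.0011. Srrm3, a splicing activator of neuronal microexons that the study lists as decreased, had 2180 and 2484 reads in WT and 1014 and 901 in Nrf1-CKO (log2 fold change -1.34, SE 0.15). Its paralog Srrm4 was not called, with a log2 fold change of -0.13 (SE 0.14). Rbpms2, a relative of the RGC marker Rbpms, had 2441 and 2024 reads in WT and 1379 and 1234 in Nrf1-CKO (log2 fold change -0.81, SE 0.10), and Rbpms itself stayed within 1.4-fold at -0.45 (SE 0.08). Cpeb1, which controls translation through the poly(A) tail, rose from 205 and 176 to 656 and 433 reads (log2 fold change 1.48, SE 0.24). Ptbp1, the progenitor repressor of neuronal exons, and Ptbp2, its neuronal counterpart, had log2 fold changes of 0.17 and -0.34, and the progenitor genes Msi1 and Msi2 had 0.17 and -0.12, all short of 1.4-fold. The muscleblind genes Mbnl1, Mbnl2 and Mbnl3 had log2 fold changes between 0.32 and 0.34.

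Of 9 transcripts known to be bound or regulated by neuronal ELAV-like proteins, 2 were called lower and 2 higher. Their log2 fold changes had a median of -0.17. The axon growth gene Gap43 fell from 20582 and 19137 to 7062 and 5728 reads, and Mapt, which encodes tau, from 10195 and 10449 to 2734 and 1457, with log2 fold changes of -1.68 and -2.35 (SE 0.11 and 0.24). Both are on the study's list of decreased genes. By contrast, the cell cycle inhibitor gene Cdkn1a rose from 247 and 109 to 1311 and 1572 reads and the neurotrophin gene Bdnf from 1109 and 952 to 2148 and 2432, with log2 fold changes of 3.01 and 1.12 (SE 0.27 and 0.11). Satb1, Ache and Msi1 were among those not called, as was Nova1, described above, which also belongs to this list.

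Marker genes of retinal cell types moved to different extents beside the set. Of 14 RGC markers, 12 were called lower, the other 2 being Rbpms and Thy1, and their summed level was 1726 and 1966 CPM in WT and 683 and 522 CPM in Nrf1-CKO. The median log2 fold change of the 13 markers above the floor of 3 reads was -1.77. The study lists 10 of the 14 as decreased. Pou4f2 and Isl1, transcription factors that define differentiating RGCs, had log2 fold changes of -0.97 and -1.37, the smallest decreases of the 12. Larger decreases were those of Pou4f3, a relative of Pou4f2, at -3.48 (SE 0.51), of Sncg, the gamma-synuclein gene, at -2.44 (SE 0.20) and of Nefl, the light neurofilament gene, at -1.95 (SE 0.16), and Nefh, the heavy neurofilament gene, went from 60 and 71 reads to 5 and 1. Thy1, often used to mark mature RGCs, was near 0, with 1 read in each WT library and 11 and 25 in Nrf1-CKO, and its call (higher) rests on these few reads. The 13 progenitor markers, in contrast, summed to 8796 and 9452 CPM in WT and 6924 and 7465 CPM in Nrf1-CKO, where 3 were called lower (Ccnd1, Hes5 and Fgf15) and the median on the log2 scale was -0.12. Of 11 markers of neurogenic precursors 3 were called lower, Dll3 and Neurod4 among them, with a median of -0.10. Of 6 photoreceptor precursor markers 2 were lower, Rxrg and Crx, with a median of -0.25. Among 9 tested markers of amacrine and horizontal cells 4 were lower and 2 higher, with a median of -0.65 and a range from -2.35 for Ptf1a to 1.42 for Tfap2a. The part that the number of RGCs plays in the values of the RNA-binding protein genes was not tested.

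**Figure D4:**
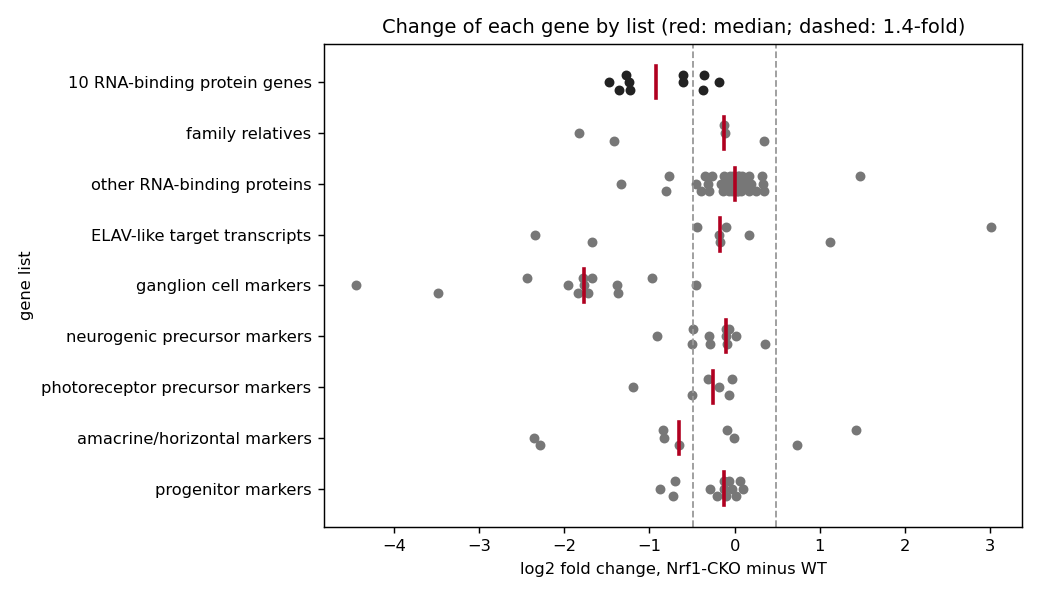
Log2 fold change of each tested gene (points) in the set of 10, in relatives, in other RNA-binding proteins, in ELAV-like target transcripts and in 5 lists of retinal cell type markers, with the median of each list in red and dashed lines at 1.4-fold. Thy1, which is at the floor of 3 reads or fewer in WT, is left out. The set has a median of -0.92 (edgeR on counts), the ganglion cell markers lie further to the left with a median of -1.77, and the progenitor markers and other RNA-binding proteins are centred near 0.

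Many markers of cells outside the neural retina were higher in Nrf1-CKO, beside those of the lens. Of 8 macrophage and microglia markers 7 were called higher, with 73.9 and 66.4 CPM in sum in WT and 211 and 252 CPM in Nrf1-CKO. For pigment epithelium, 4 of 6 tested markers were higher (206 and 146 CPM in WT, 375 and 397 CPM in Nrf1-CKO), and for periocular mesenchyme 4 of 7 (246 and 173 CPM, 355 and 308 CPM). Of 6 endothelial markers 4 were higher and Kdr lower, with sums of 264 and 268 CPM in WT and 274 and 267 CPM in Nrf1-CKO. Kdr alone gave 200 and 211 CPM in WT and 144 and 137 CPM in Nrf1-CKO. Its decrease therefore masks the rise of the other markers in these sums. Of 4 tested erythroid markers 2 were higher (491 and 578 CPM, 638 and 640 CPM). Hba-a1 and Hbb-bt had 0 reads in every library, while Hbb-y had 41172 to 50760. When the genes of these 6 lists, lens included, were left out of the scaling, the same number of the 10 RNA-binding protein genes was called lower, 7, and their median log2 fold change was -0.92.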

How the data were processed

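Counts of 2 WT and 2 Nrf1-CKO retina libraries (E13.5) were used, grouped by their labels. Per the labels and the study's methods, the authors aligned 100 nt paired-end reads to mm10 with TopHat (2.7.2 as stated), summed them per gene with HTSeq and deposited whole-number counts. They also deposited normalized log2 values; the submitters' processing notes name DESeq and limma without saying which step each served. The 5 HTSeq summary rows (74.0% to 75.0% of entries, mostly alignments that were not unique) were left out, so genes with close copies lose reads.

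Genes passing filterByExpr (minimum count 10) were scaled with TMM and compared without covariates in R 4.3.3 with edgeR 4.0.16 (quasi-likelihood F test). This test stands in for the study's Cuffdiff, with Benjamini-Hochberg adjustment over all 15762 tested genes. It called 1268 genes lower and 2024 higher, more in each direction than the study reports at the same thresholds. Each standard error was the absolute log2 fold change over the square root of F. As nothing says that same-genotype libraries came from separate pools, p-values measure only the spread between these libraries. Counts were also simulated at these library sizes, with 1 spread between replicates for every gene and far fewer changed genes than were called here. Of 15608 genes tested there, 67.7% of 65 changed 1.5-fold and 89.6% of 67 changed 2-fold were called in the right direction. Of 15412 unchanged genes, 42 were called. Because of these settings the rates may not hold for the real libraries. Alternatives were DESeq2 1.42.0, limma 3.58.1 on the deposited values, other scalings, filters and thresholds, a replicate block and each library left out.

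Gene models are from GENCODE M21 on GRCm38 and promoters from RefSeq on GRCm38.p6. The 10 genes and the lists were chosen with earlier results of these data known. The text names all 10 genes, their 5 relatives and, from the other lists, some of the called genes with the largest change in a direction and defining markers such as Pou4f2 and Isl1. Other list genes (Srrm4, Rbpms, Ptbp1, Ptbp2, Msi1, Msi2 and the Mbnl genes) were named after their values were seen. Values of some single list genes are not reported here.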

Additional observations from a re-analysis of the deposited data

How the results depend on the processing

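Across 14 alternatives, 5 to 8 of the 10 genes were called lower and 0 higher. The calls and directions of Elavl3, Elavl4, Celf3, Celf4 and Rbfox3 were kept in all 14, as was the absence of a call for Nova1 and Rbfox2. Elavl2 lost its call under glmTreat, and Rbfox1 under glmTreat, at an adjusted p of at most 0.05, on the deposited values and without WT replicate 1. Nova2 turned to 0.11 without Nrf1-CKO replicate 2 and was called, at -1.09, without Nrf1-CKO replicate 1. The median log2 fold change of the 10 genes was -1.20 without Nrf1-CKO replicate 1 and -0.70 without Nrf1-CKO replicate 2, the extremes when single libraries were omitted, and was -0.53 by limma on the deposited values. Over all genes, glmTreat called 743 lower and 1188 higher and limma on the deposited values 723 and 945, against 1268 and 2024. Leaving out single libraries gave 1071 to 1402 lower and 1703 to 1856 higher, with 6 to 8 of the 10 genes lower. The sources used here do not say whether same-numbered libraries shared more than a number. The correlation of their deviations over genes was -0.010. With the replicate block, 1256 genes were called lower and 1970 higher. Of the 10 genes, 7 were then lower with a median of -0.92, and no call among the 10 changed. No scaling moved the median of all genes by more than 0.040. DESeq2 called 7 of the 10 lower. With 2 libraries per genotype, errors were widest for Nova2 and Rbfox3 among the 10 genes (SE 0.30 each). The cause of these shifts was not tested.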

Other observations

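Cpeb3, a translational regulator of the same family as Cpeb1, had a pattern over the libraries like that of Nova2 and was picked out after its values were seen. It had 369 and 445 reads in WT, 360 in Nrf1-CKO replicate 1 and 136 in replicate 2, a log2 fold change of -0.77 (standard error 0.40) that was not called.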
